A study of Homo sapiens with 4 samples.

Results

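The collagen family was described across all 4 libraries of the series. Its members were the gene names made of COL, a number, A and a number, without regard to their values, and 44 of the 26485 gene names in the deposited tables matched. They were divided by textbook structure into 11 fibrillar, 6 basement-membrane, 10 FACIT and 4 transmembrane collagens, 5 beaded-filament collagens of type VI, 3 short-chain collagens of types VIII and X, 2 multiplexins, and 3 others (COL7A1, COL26A1 and COL28A1). SW1736 and 8505C are established human cell lines of anaplastic thyroid cancer (ATC). The wild-type (wt) lines were the parental cells, labelled as sensitive to the drug. SW1736-PTX and 8505C-PTX were made from them by exposure to paclitaxel, a taxane that stabilizes microtubules, at doses that climbed from 1 nM to 1.5 µM over 6 months, and were afterwards kept in 1.5 µM paclitaxel, so drug selection and the presence of the drug cannot be told apart. Whether a PTX line is a clone or a pool was not given in the sources used here. In bulk cultures, fewer cells of a type and less RNA per cell cannot be told apart. The mRNA of each of the 4 conditions was sequenced once (1 library per condition).

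Collagens are extracellular matrix proteins in which 3 alpha chains wind into a triple helix, each chain with glycine repeated regularly along the helix. The fibrillar types I, II, III, V and XI form the banded fibrils of connective tissue, type IV forms the sheet of the basement membrane under epithelia, FACITs sit on the surface of fibrils, and transmembrane collagens are anchored in the plasma membrane. Chains are assembled only with defined partners, so the levels of the chains of a type are usually read together.

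Depth was between 43.5 and 57.9 M reads of 75 bp per library, and the PTX library was the deeper of each pair. FPKM values, which are scaled to gene length and depth, were used for all levels, so levels of different genes can be set side by side. For the median collagen transcript, 3 reads correspond to 0.00822 to 0.0109 FPKM, a limit that covers counting error only. Since each condition is 1 library, differences could not be set against the spread between cultures, no test was possible, and the 2 lines are not replicates of each other. As a check of the PTX labels, ABCB1, the efflux transporter linked to taxane resistance, was listed at 0 in wt and reached 302.3 FPKM in PTX cells of SW1736, with 0.363 and 497 FPKM in the 8505C libraries.

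The library labelled SW1736-PTX stood apart from its parental line in lineage genes, and its cell line identity was not verified here. NKX2-1, a thyroid and lung transcription factor, was listed at 0 in SW1736 wt but was at 36.3 FPKM in SW1736-PTX, 30.5 in 8505C wt and 39.0 in 8505C-PTX. PAX8, another thyroid transcription factor, was at 38.2 FPKM in SW1736 wt and between 0.123 and 0.206 in the other libraries. Over the 27 collagens above 0.5 FPKM in at least 1 library, Pearson's r of log2(FPKM + 0.1) was 0.299 between SW1736-PTX and SW1736 wt, 0.773 between SW1736-PTX and 8505C wt, and 0.779 between the PTX libraries (a description across genes, which are not independent). The same order held over all 14692 genes above this limit, with 0.767, 0.873 and 0.933. Within the 8505C pair r was 0.841 over the collagens and 0.877 over all genes, and between the wt libraries it was 0.281 and 0.845. Over all genes the PTX libraries were thus more alike than either was to its own wt library. SW1736-PTX was nearer to 8505C wt than to SW1736 wt in 15 of the 27 collagens (55.6%) and in 56.0% of all genes. For this reason each collagen level in the SW1736 pair is given here together with the levels in 8505C. Of the thyroid markers used for the check, TG, TSHR and SLC5A5, which encode thyroglobulin, the thyrotropin receptor and the iodide transporter, were at or below 0.00586 FPKM in every library. Of 6 epithelial markers, 3 or 4 passed 0.5 FPKM in each library, and EPCAM and CDH1 were at or below 0.0806 FPKM in all. Of 6 mesenchymal markers, 5 or 6 passed this limit. These 2 marker sets were not level across the libraries. In the SW1736 pair, 2 epithelial markers were called higher and 1 lower of 4 compared, and 1 mesenchymal marker higher and 2 lower of 6. In the 8505C pair, 0 of 3 epithelial markers were called, and 2 mesenchymal markers were higher and 0 lower of 6. Over all genes, 15.7% were higher and 10.2% lower in the SW1736 pair, and 15.0% and 5.89% in the 8505C pair. Of the 7 fibroblast markers, PDGFRA, FAP, DCN, LUM and THY1 were at or below 0.274 FPKM in every library, and PDGFRB and PDPN are given with the fibrillar chains. Of 5 endothelial markers, CDH5 alone passed 0.5 FPKM, with 55.9 FPKM in 8505C wt and 4.53 in 8505C-PTX (log2 fold change -3.59), and it was at 0 and 0.225 in the SW1736 pair. Of the leukocyte markers, PTPRC and CD3E were at or below 0.0197 FPKM in every library. CD14 had 0.894 (SW1736 wt), 0.707 (SW1736-PTX), 0.576 (8505C wt) and 4.50 (8505C-PTX) FPKM, and CD68 had 5.84, 23.6, 21.7 and 43.0. CD14 was called higher in the 8505C pair (2.77) and CD68 in the SW1736 pair (1.99), and the part of these markers in the collagen results was not tested.

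Of the 44 collagens, 27 had an FPKM above 0.5 in at least 1 library, and 17 did not. Of these 17, COL2A1, COL6A5, COL6A6, COL9A1, COL10A1, COL19A1, COL20A1 and COL21A1 were listed at 0 in all 4 libraries. The highest of the other 9 was COL11A2, the partner of COL11A1 in cartilage fibrils, with 0.104 (SW1736 wt), 0.389 (SW1736-PTX), 0.181 (8505C wt) and 0.374 (8505C-PTX) FPKM. COL24A1 reached 0.200 FPKM and COL25A1 0.103, and COL8A2, COL14A1, COL22A1, COL23A1, COL26A1 and COL28A1 stayed at or below 0.0730. Collagens above 0.5 FPKM numbered 17 (SW1736 wt), 22 (SW1736-PTX), 14 (8505C wt) and 21 (8505C-PTX). Over all gene names, 12579, 13430, 12393 and 13420 passed this limit in the same order, so more genes passed in the PTX library of each pair.

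**Figure D1:**
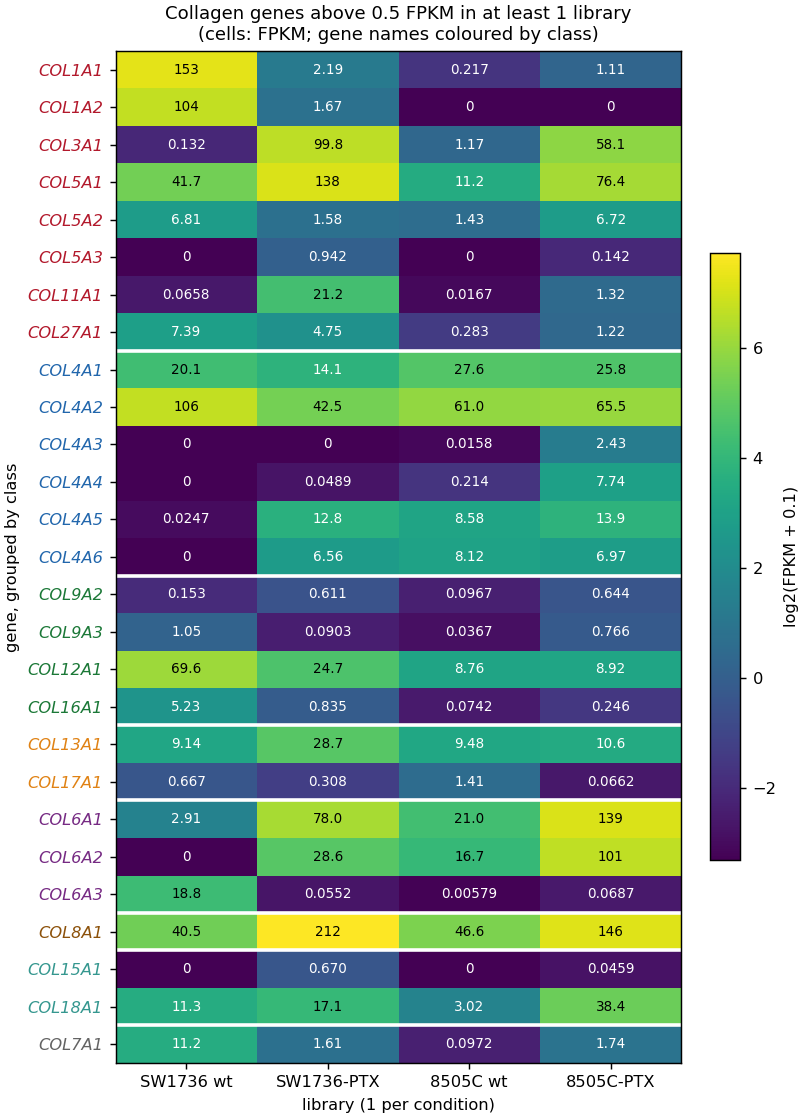
Levels of the 27 collagens above 0.5 FPKM in at least 1 library; columns are the 4 libraries (1 per condition), rows are genes grouped and coloured by class (fibrillar, basement-membrane, FACIT, transmembrane, beaded-filament, short-chain, multiplexin and other, from the top), cells print the FPKM and are coloured by log2(FPKM + 0.1). COL1A1 and COL1A2 are high only in SW1736 wt (153 and 104 FPKM), while COL3A1 is high only in the PTX libraries (99.8 and 58.1 FPKM).

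The summed FPKM of the collagens was 611 (SW1736 wt), 740.4 (SW1736-PTX), 227 (8505C wt) and 715 (8505C-PTX), so 8505C-PTX held 3.15 times the sum of its wt library and SW1736-PTX 1.21 times. Fibrillar chains made up 51.4% and 36.6% of the sum in the SW1736 wt and PTX libraries, and 6.36% and 20.3% in those of 8505C. Basement-membrane chains were the largest class in 8505C wt, with 46.4%, and made up between 10.3% and 20.7% in the others. Type VI chains held 3.55% and 14.4% in the SW1736 pair and 16.6% and 33.5% in the 8505C pair. The short-chain class, which is nearly all COL8A1, held 6.65% and 28.6% in the SW1736 pair and 20.5% in both 8505C libraries. The share of FACITs was 12.4% and 3.55% in the SW1736 pair and 3.95% and 1.48% in the 8505C pair. The most abundant collagen was COL1A1 in SW1736 wt (25.1% of the sum), COL4A2 in 8505C wt (26.8%) and COL8A1 in SW1736-PTX (28.6%) and 8505C-PTX (20.5%).

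**Figure D2:**
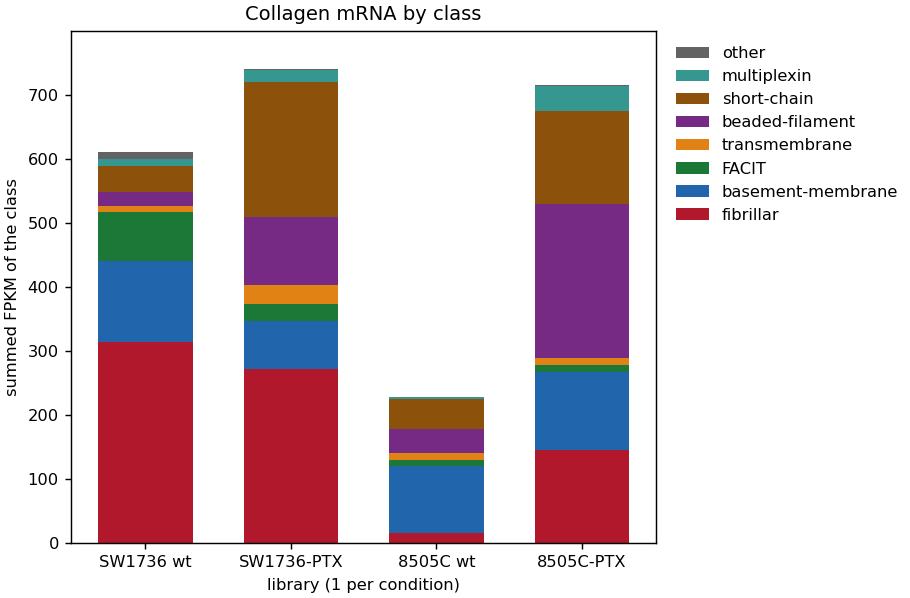
Summed FPKM of the collagen genes (vertical axis) in each library, 1 library per bar, stacked by class. The fibrillar segment is 314 (SW1736 wt), 271 (SW1736-PTX), 14.5 (8505C wt) and 145 (8505C-PTX) FPKM.

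The pairs were compared to ask which collagens go with acquired paclitaxel resistance. A gene was compared when either library of the pair exceeded 0.5 FPKM, and called when log2((PTX + 0.1)/(wt + 0.1)) was beyond 1.5 in either direction; on this scale the change of weakly expressed genes is understated. In the SW1736 pair, 25 collagens were compared, of which 11 were called higher and 7 lower in SW1736-PTX, against 15.7% and 10.2% of all 14202 genes compared. In the 8505C pair, 22 collagens were compared, with 15 called higher and 1 lower in 8505C-PTX, against 15.0% and 5.89% of all 13794 genes. The members' median log2 fold change was 0.60 in the SW1736 pair and 2.05 in the 8505C pair, beside 0.01 and 0.11 over all genes compared. Of the 11 higher calls in the SW1736 pair, 4 (COL4A6, COL5A3, COL6A2 and COL15A1) were listed at 0 in SW1736 wt, and over the 21 collagens above 0 in both libraries the median was -0.63, so the direction of the SW1736 median rests on these genes.

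In both pairs, 20 collagens could be compared, and COL3A1, COL5A1, COL6A1, COL6A2, COL8A1 and COL11A1 were called higher in both (6 of 20, against 7.37% of the 13304 genes compared in both). They were 54.5% of the higher calls of the SW1736 pair and 40.0% of those of the 8505C pair. Over all genes, 981 were higher in both, beside 2236 higher calls in the SW1736 pair and 2068 in the 8505C pair. Higher calls shared by both pairs were thus common over all genes as well. No collagen was called lower in both (2.41% of all genes), and none was higher in SW1736-PTX and lower in 8505C-PTX (0.428%). By contrast, COL1A1, COL5A2, COL7A1 and COL9A3 were lower in SW1736-PTX and higher in 8505C-PTX (4 of 20, against 0.654% of all genes).

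**Figure D3:**
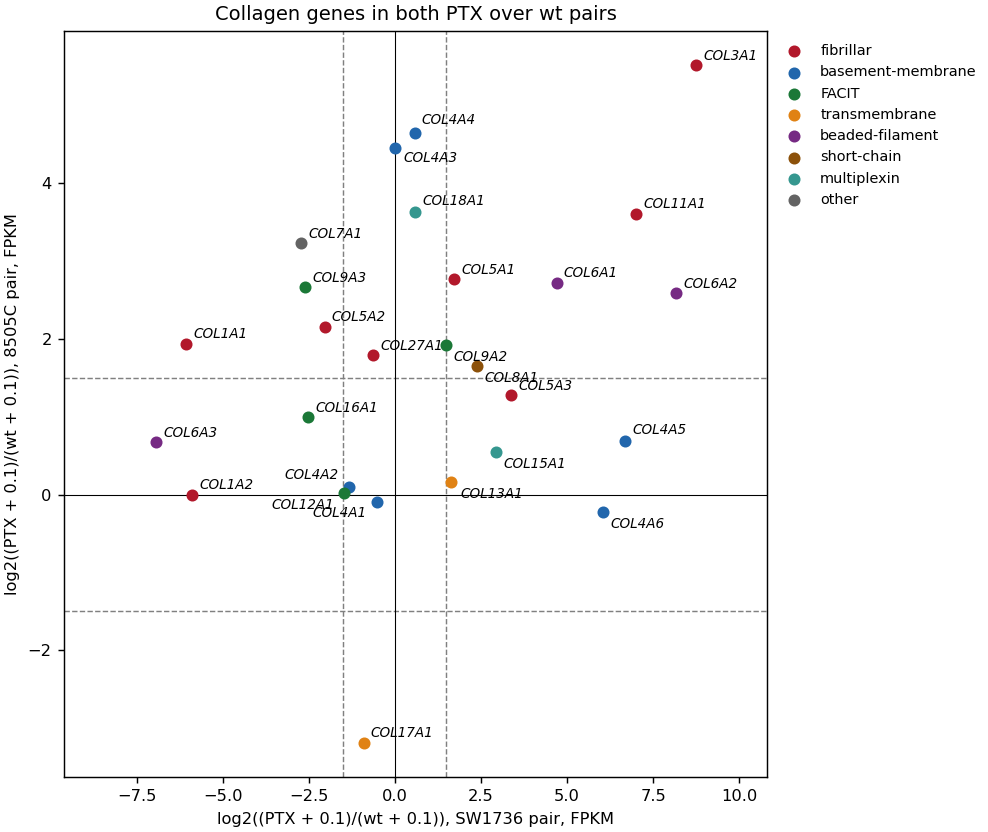
Log2 fold change of PTX over wt on FPKM + 0.1 in the SW1736 pair (horizontal axis) and the 8505C pair (vertical axis) for the 27 collagens above 0.5 FPKM in any library, 1 point per gene, coloured by class; dashed lines mark 1.5 in either direction, and genes too low to be compared in a pair are drawn as well. COL3A1 is the farthest to the upper right (8.75 and 5.51), COL1A1 (-6.07 and 1.94) and COL6A3 lie to the left, and COL17A1 is the only point below -1.5 on the vertical axis.

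When SW1736-PTX was set against 8505C wt in place of its own parent, 23 collagens were compared, with 15 higher and 1 lower, against 15.1% and 5.23% of all 13824 genes (this comparison and the 8505C pair share the 8505C wt library). Of the 11 collagens called higher within the SW1736 pair, 8 were also higher than in 8505C wt, namely COL3A1, COL5A1, COL5A3, COL6A1, COL8A1, COL11A1, COL13A1 and COL15A1. The other 3, COL4A5, COL4A6 and COL6A2, were not called. The SW1736 pair and this comparison share the SW1736-PTX library, which favours such overlap, and the overlap over all genes was not computed. Of the 7 collagens called lower within the SW1736 pair, none was lower than in 8505C wt. Only COL5A2 could have been, since the others were at or below 0.217 FPKM in 8505C wt, under the limit of 0.5. COL1A1, COL1A2, COL7A1 and COL16A1 were instead higher than in 8505C wt, COL5A2 was not called, and COL6A3 and COL9A3 were too low in both libraries to be compared.

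Type I collagen, the main protein of bone, skin and tendon fibrils, is built of chains encoded by COL1A1 (chromosome 17, 50184096 to 50201639, hg38) and COL1A2 (chromosome 7, 94394561 to 94431232). COL1A1 was at 153 (SW1736 wt), 2.19 (SW1736-PTX), 0.217 (8505C wt) and 1.11 (8505C-PTX) FPKM. COL1A2 had 104 FPKM in wt and 1.67 in PTX cells of SW1736, and was listed at 0 in both 8505C libraries. Both chains were thus abundant in SW1736 wt alone, and within the SW1736 pair they were 70.1 and 62.5 times lower in SW1736-PTX, log2 fold changes of -6.07 and -5.88. The ratio of COL1A1 to COL1A2 was 1.47 in wt and 1.31 in PTX cells of SW1736, although the level of both chains differed. In the 8505C pair COL1A1 was called higher (1.94), with no COL1A2 listed beside it.

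COL3A1 (chromosome 2, 188974373 to 189012746) encodes the chain of type III collagen, a homotrimer found with type I in soft tissues. It was at 0.132 (SW1736 wt), 99.8 (SW1736-PTX), 1.17 (8505C wt) and 58.1 (8505C-PTX) FPKM. Both PTX libraries were above both wt libraries, with ratios of 756 in the SW1736 pair and 49.4 in the 8505C pair, and it was also 85.0 times higher in SW1736-PTX than in 8505C wt. COL5A2, whose gene lies next to COL3A1 on the opposite strand, followed it in the 8505C pair but not in the SW1736 pair. Its level was 6.81 FPKM in wt and 1.58 in PTX cells of SW1736, and 1.43 and 6.72 in the 8505C libraries, log2 fold changes of -2.04 and 2.16. The wt level of SW1736 and the PTX level of 8505C were close to each other.

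Type V collagen nucleates type I fibrils and usually contains COL5A1 chains with COL5A2. COL5A1 (chromosome 9, 134641805 to 134844842) was at 41.7 (SW1736 wt), 138 (SW1736-PTX), 11.2 (8505C wt) and 76.4 (8505C-PTX) FPKM. It was higher in both PTX libraries than in either wt library, 3.32 times in the SW1736 pair and 6.84 times in the 8505C pair. The ratio of COL5A1 to COL5A2 was 6.12 (SW1736 wt), 87.6 (SW1736-PTX), 7.81 (8505C wt) and 11.4 (8505C-PTX), so SW1736-PTX had far more COL5A1 per COL5A2 than the other libraries. COL5A3, a rarer type V chain, was listed at 0 in both wt libraries and at 0.942 and 0.142 FPKM in SW1736-PTX and 8505C-PTX.

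COL11A1 (chromosome 1, 102876467 to 103108496), a chain of the thin fibrils of cartilage, was at 0.0658 (SW1736 wt), 21.2 (SW1736-PTX), 0.0167 (8505C wt) and 1.32 (8505C-PTX) FPKM. It was called higher in both pairs (7.01 and 3.60), and its level in 8505C-PTX was 16.1 times lower than in SW1736-PTX. COL27A1, a fibrillar collagen of developing cartilage, was at 7.39, 4.75, 0.283 and 1.22 FPKM in SW1736 wt, SW1736-PTX, 8505C wt and 8505C-PTX. It was called higher in the 8505C pair (1.79) and not called in the SW1736 pair (-0.63). In all, 4 fibrillar chains were higher and 3 lower of 8 compared in the SW1736 pair, and all 6 compared in the 8505C pair were higher. Over all genes, 15.7% were higher and 10.2% lower in the SW1736 pair, and 15.0% were higher in the 8505C pair. The 7 fibroblast markers summed to 7.42 FPKM in SW1736 wt and 3.11 in 8505C wt, and to 12.8 and 22.2 in the PTX libraries, with 1 of 7 above 0.5 FPKM in each wt library and 2 of 7 in each PTX library. Among them, PDGFRB, a growth factor receptor of pericytes and fibroblasts, went from 0.402 to 6.08 FPKM in the SW1736 pair and from 0.0922 to 6.49 in the 8505C pair. PDPN, podoplanin, had 6.81 (SW1736 wt), 6.65 (SW1736-PTX), 2.99 (8505C wt) and 15.2 (8505C-PTX) FPKM and was called higher in the 8505C pair (2.30). The part of these markers in the fibrillar result was not tested, and the other 5 stayed below 0.5 FPKM.

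Type IV collagen is made from 6 chains whose genes lie in 3 head-to-head pairs, each pair transcribed outward from a shared stretch of DNA, and it forms 3 kinds of trimer in which COL4A1 joins COL4A2, COL4A3 joins COL4A4 and COL4A5, or COL4A5 joins COL4A6. COL4A1 was at 20.1 (SW1736 wt), 14.1 (SW1736-PTX), 27.6 (8505C wt) and 25.8 (8505C-PTX) FPKM. COL4A2 had 106 (SW1736 wt), 42.5 (SW1736-PTX), 61.0 (8505C wt) and 65.5 (8505C-PTX) FPKM. This pair was expressed in every library, and neither chain was called in either pair of libraries (-0.51 and -1.32 in SW1736, -0.10 and 0.10 in 8505C). COL4A2 exceeded COL4A1 in all 4 libraries, 5.29 times in SW1736 wt and between 2.21 and 3.02 times in the others.

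COL4A3 and COL4A4, the chains of the glomerular and alveolar basement membrane, were detected above 0.5 FPKM in 8505C-PTX alone. COL4A3 (chromosome 2, 227164565 to 227314792) was listed at 0 in both SW1736 libraries, with 0.0158 FPKM in 8505C wt and 2.43 in 8505C-PTX. COL4A4 (227002711 to 227164559) had 0 (SW1736 wt), 0.0489 (SW1736-PTX), 0.214 (8505C wt) and 7.74 (8505C-PTX) FPKM. The log2 fold changes in the 8505C pair were 4.45 and 4.64, and the ratios without the pseudocount were 154 and 36.2, the first against about 5.51 reads in 8505C wt.

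COL4A5 (chromosome X, 108439844 to 108697545) and COL4A6 (108155607 to 108439497) differed between SW1736 wt and all other libraries. COL4A5 was at 0.0247 (SW1736 wt), 12.8 (SW1736-PTX), 8.58 (8505C wt) and 13.9 (8505C-PTX) FPKM. COL4A6 was listed at 0 in SW1736 wt and was at 6.56, 8.12 and 6.97 FPKM in the other libraries. Within the SW1736 pair both were called higher (6.70 and 6.06), within the 8505C pair neither was called (0.68 and -0.22), and SW1736-PTX did not differ by a called amount from 8505C wt (0.58 and -0.30).

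**Figure D4:**
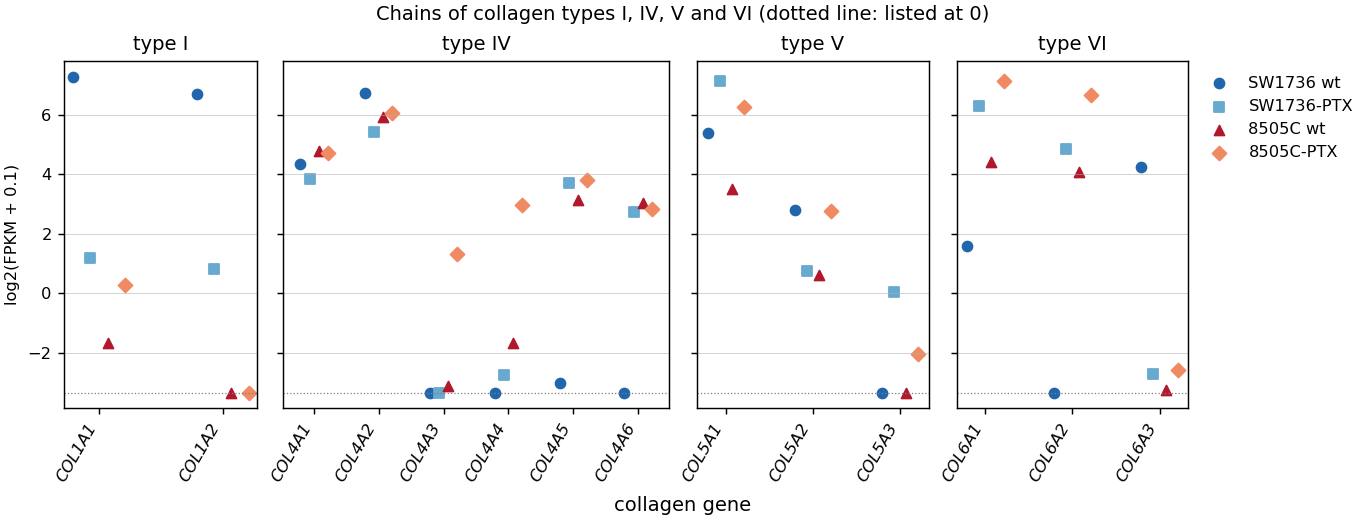
Levels of the chains of collagen types I, IV, V and VI, on a scale of log2(FPKM + 0.1) with 1 marker per library (circles SW1736 wt, squares SW1736-PTX, triangles 8505C wt, diamonds 8505C-PTX); the dotted line is where a gene listed at 0 falls. The type I chains are high in SW1736 wt alone, COL4A3 and COL4A4 are highest in 8505C-PTX (2.43 and 7.74 FPKM), COL4A5 and COL4A6 are low together in SW1736 wt, and COL6A3 is near the line wherever COL6A1 and COL6A2 are high.

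To show the DNA shared by the head-to-head type IV genes and that before the type VI chains that differed, upstream sequences are given here, read 5′ to 3′ on the strand of the gene named. RefSeq promoter windows (GRCh38.p14) were found for 32 of the 44 members, and not for COL1A1, COL1A2, COL2A1, COL3A1, COL5A2, COL6A1, COL6A5, COL8A1, COL9A3, COL14A1, COL20A1 and COL22A1. The RefSeq starts of COL4A1 and COL4A2 are 127 bp apart, those of COL4A3 and COL4A4 419 bp, and the nearer start of COL4A6 is 380 bp from that of COL4A5. Capitals mark the TATA box (letters TATAAA), the CCAAT motif and the GC box to which SP1 binds (letters GGGCGG) on either strand, with overlaps between motifs allowed. The first sequence is the whole stretch between the starts of COL4A1 and COL4A2 (chr13:110307158-110307283, plus strand), and the others are the 250 bases before the start of COL4A3 (chr2:227164374-227164623, plus strand), of COL4A5 (chrX:108439588-108439837, plus strand), of COL6A2 (chr21:46097862-46098111, plus strand), of COL6A3 (chr2:237414165-237414414, minus strand) and of COL11A1 (chr1:103108523-103108772, minus strand), a collagen called higher in both pairs.
COL4A1-COL4A2: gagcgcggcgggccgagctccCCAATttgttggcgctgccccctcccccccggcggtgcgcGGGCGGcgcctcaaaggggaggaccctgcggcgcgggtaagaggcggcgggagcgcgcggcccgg
COL4A3: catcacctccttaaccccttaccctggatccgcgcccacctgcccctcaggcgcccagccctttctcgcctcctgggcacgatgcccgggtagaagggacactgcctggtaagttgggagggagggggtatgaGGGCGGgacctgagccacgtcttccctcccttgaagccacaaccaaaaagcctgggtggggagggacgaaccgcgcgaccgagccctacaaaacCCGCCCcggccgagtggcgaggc
COL4A5: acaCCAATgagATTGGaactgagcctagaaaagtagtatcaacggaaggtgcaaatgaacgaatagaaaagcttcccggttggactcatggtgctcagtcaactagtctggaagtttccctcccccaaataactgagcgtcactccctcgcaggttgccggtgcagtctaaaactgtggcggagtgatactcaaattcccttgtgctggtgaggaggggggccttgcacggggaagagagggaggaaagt
COL6A2: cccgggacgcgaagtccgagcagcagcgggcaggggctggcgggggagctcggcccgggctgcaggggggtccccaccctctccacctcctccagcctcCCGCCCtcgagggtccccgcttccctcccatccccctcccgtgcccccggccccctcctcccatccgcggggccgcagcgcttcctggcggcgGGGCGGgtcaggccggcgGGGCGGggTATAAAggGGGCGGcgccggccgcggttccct
COL6A3: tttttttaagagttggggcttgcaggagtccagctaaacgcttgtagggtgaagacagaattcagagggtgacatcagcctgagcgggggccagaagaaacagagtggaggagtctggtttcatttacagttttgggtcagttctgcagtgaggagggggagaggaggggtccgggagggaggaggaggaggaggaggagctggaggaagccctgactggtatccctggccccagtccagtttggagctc
COL11A1: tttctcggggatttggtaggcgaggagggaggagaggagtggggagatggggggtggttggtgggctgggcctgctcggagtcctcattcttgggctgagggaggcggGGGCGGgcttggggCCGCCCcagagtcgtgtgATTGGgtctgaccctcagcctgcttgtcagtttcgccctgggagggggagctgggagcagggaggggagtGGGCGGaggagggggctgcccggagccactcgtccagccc

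The stretch between COL4A1 and COL4A2, the pair expressed in all libraries, held 1 CCAAT box and 1 GC box. The COL4A3 window held 2 GC boxes and no CCAAT box, and the COL4A5 window 2 CCAAT boxes and no GC box. The COL6A2 window held 4 GC boxes and a TATA box that begins 32 bases before the start, whereas none of the 3 motifs was found in the COL6A3 window. The COL11A1 window held 3 GC boxes and 1 CCAAT box. In the 250 bases before a start, GGGCGG was present for 65.6% of the 32 collagens with a window and for 46.2% of all 27305 genes, CCAAT for 34.4% and 37.0%, and TATAAA for 21.9% and 13.0%. The median GC content was 65.2% over the 32 collagens, with the windows of a gene averaged, and 58% over all 35116 single windows. These 2 medians are thus not computed alike, and the part of GC content in these shares was not tested. These matches are descriptions of the letters in these windows, and no binding was measured.

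Type VI collagen forms beaded microfilaments around cells, and its usual trimer needs a chain each from COL6A1, COL6A2 and COL6A3. COL6A1 (chromosome 21, 45981749 to 46005049) was at 2.91 (SW1736 wt), 78.0 (SW1736-PTX), 21.0 (8505C wt) and 139 (8505C-PTX) FPKM. COL6A2 (46098119 to 46132849), its neighbour, was listed at 0 in SW1736 wt and was at 28.6, 16.7 and 101 FPKM in the other libraries. Both chains were highest in the PTX libraries, and COL6A1 was 26.8 times higher in SW1736-PTX and 6.61 times higher in 8505C-PTX than in the wt library of the pair. COL6A3 (chromosome 2, 237324012 to 237414207) went the other way in SW1736, from 18.8 FPKM in wt cells to 0.0552 in SW1736-PTX, 340 times lower. It was at 0.00579 and 0.0687 FPKM in the 8505C pair. The ratio of COL6A3 to COL6A1 was 6.46 in SW1736 wt, whereas COL6A1 exceeded COL6A3 1413 times in SW1736-PTX and 2019 times in 8505C-PTX. In 8505C wt the COL6A3 value corresponds to fewer than 3 reads, so no ratio is given, and in no library were all 3 chains above 0.5 FPKM. COL6A5 and COL6A6, which are related to COL6A3, were listed at 0 everywhere.

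COL8A1 (chromosome 3, 99638596 to 99796733), a short-chain collagen of vessel walls and the corneal endothelium, was the most abundant collagen of both PTX libraries. It was at 40.5 (SW1736 wt), 212 (SW1736-PTX), 46.6 (8505C wt) and 146 (8505C-PTX) FPKM. The wt lines were close to each other (a ratio of 1.15), and both PTX libraries were higher, 5.23 and 3.14 times. Its partner COL8A2 was at or below 0.0621 FPKM in every library. In the 8505C pair, the log2 fold change of COL8A1 was 1.65, not far above the limit of 1.5.

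The multiplexins are proteoglycan collagens of basement membrane zones. COL18A1 (chromosome 21, 45405137 to 45513720), the source of endostatin, was at 11.3 (SW1736 wt), 17.1 (SW1736-PTX), 3.02 (8505C wt) and 38.4 (8505C-PTX) FPKM. It was called higher in the 8505C pair (12.7 times, a log2 fold change of 3.62) and not in the SW1736 pair (0.60). COL15A1 was listed at 0 in both wt libraries, at 0.670 FPKM in SW1736-PTX and at 0.0459 in 8505C-PTX. COL7A1 (chromosome 3, 48564073 to 48595160), which forms the anchoring fibrils beneath stratified epithelia, was at 11.2 (SW1736 wt), 1.61 (SW1736-PTX), 0.0972 (8505C wt) and 1.74 (8505C-PTX) FPKM. It was thus 6.96 times lower in one PTX line and 17.9 times higher in the other than in the parental cells, and both PTX libraries ended at nearly the same level.

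COL12A1 was the highest FACIT in each of the 4 libraries. COL12A1 (chromosome 6, 75084326 to 75205907), which coats type I fibrils in tendon and ligament, was at 69.6 (SW1736 wt), 24.7 (SW1736-PTX), 8.76 (8505C wt) and 8.92 (8505C-PTX) FPKM. Its log2 fold change of -1.49 in the SW1736 pair was just short of the limit, and it was 0.02 in the 8505C pair. COL16A1 had 5.23 FPKM in wt and 0.835 in PTX cells of SW1736, a called difference of 6.26 times, and at 0.0742 and 0.246 in the 8505C libraries. COL9A3, a chain of the type IX collagen of cartilage, was at 1.05, 0.0903, 0.0367 and 0.766 FPKM in SW1736 wt, SW1736-PTX, 8505C wt and 8505C-PTX. COL9A2, its partner, was at 0.153, 0.611, 0.0967 and 0.644 FPKM in these libraries and just missed the limit in the SW1736 pair (1.49), while in the 8505C pair it was called (1.92). No FACIT was called higher in the SW1736 pair, where 2 of 4 compared were lower, and 2 of 3 compared in the 8505C pair were higher. The shares over all genes were 15.7% higher and 10.2% lower in the SW1736 pair, and 15.0% higher in the 8505C pair.

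Among the transmembrane collagens, COL13A1 (chromosome 10, 69801888 to 69959148), a component of cell adhesions and of the neuromuscular junction, was at 9.14 (SW1736 wt), 28.7 (SW1736-PTX), 9.48 (8505C wt) and 10.6 (8505C-PTX) FPKM. It was high in SW1736-PTX and nearly level in the other libraries, with log2 fold changes of 1.64 and 0.16. COL17A1 (104031288 to 104085880 on the same chromosome), the hemidesmosomal protein also called BP180, was at 0.667, 0.308, 1.41 and 0.0662 FPKM in SW1736 wt, SW1736-PTX, 8505C wt and 8505C-PTX. It was the single collagen called lower in the 8505C pair (21.3 times, a log2 fold change of -3.19), and it was not called in the SW1736 pair (-0.91). COL23A1 and COL25A1 did not pass 0.5 FPKM.

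Between the wt lines, 21 collagens were compared, and 5 were higher and 11 lower in 8505C wt than in SW1736 wt, against 7.73% and 9.92% of all 13457 genes. The higher genes were COL3A1, COL4A5, COL4A6, COL6A1 and COL6A2, and the largest differences in the other direction were those of COL1A2 (listed at 0 in 8505C wt), COL1A1 (708 times lower) and COL6A3 (under 3 reads in 8505C wt, so no ratio is given). Between the PTX lines, 25 were compared, with 5 higher and 5 lower in 8505C-PTX than in SW1736-PTX, against 3.70% and 4.09% of all 13986 genes. COL4A3, COL4A4, COL5A2, COL6A2 and COL9A3 were the higher genes, and COL1A2, COL5A3, COL11A1, COL15A1 and COL27A1 the lower ones. The median log2 difference of the collagens was -1.87 between the wt lines and 0.06 between the PTX lines, beside -0.08 and -0.01 over all genes.

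The genes that make, export, bind and degrade collagen were counted in 9 lists, whose median log2 fold changes ran from -0.56 to 1.96 in the SW1736 pair and from 0.05 to 2.03 in the 8505C pair, beside 0.01 and 0.11 over all genes. The counts of each list are to be read against all genes, of which 15.7% were higher and 10.2% lower in the SW1736 pair, 15.0% and 5.89% in the 8505C pair, and 7.37% higher in both. Of 18 genes that modify and fold chains, 16 were compared in the SW1736 pair (1 higher, 2 lower) and 18 in the 8505C pair (2 higher, 0 lower). The largest changes were in PLOD3, a lysyl hydroxylase and glycosyltransferase, from 95.1 to 23.3 FPKM in SW1736 (-2.03), and in P4HA3, a prolyl hydroxylase subunit, from 0.146 to 1.30 FPKM in 8505C (2.51). SERPINH1 (HSP47), the collagen chaperone, named after its values were seen, was called in neither pair, with 184 (SW1736 wt), 80.1 (SW1736-PTX), 85.3 (8505C wt) and 187 (8505C-PTX) FPKM. Of 10 genes of procollagen export, 8 were compared in each pair, and only SEC24D, a COPII coat subunit, was called, in SW1736 (10.6 and 31.5 FPKM, 1.56).

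Of 8 genes that remove the propeptides, 4 of 6 compared were higher and 1 lower in the SW1736 pair, and 2 of 5 were higher in the 8505C pair. BMP1, the procollagen C-proteinase, was at 11.6 (SW1736 wt), 33.7 (SW1736-PTX), 11.2 (8505C wt) and 76.5 (8505C-PTX) FPKM, called higher in both (1.52 and 2.76). ADAMTS2, the N-proteinase of types I and III, had 0.588 FPKM in wt and 3.51 in PTX cells of SW1736, and 3.31 in 8505C-PTX, where wt cells listed 0. PCOLCE2, an enhancer of BMP1, had 0 (SW1736 wt), 8.17 (SW1736-PTX), 7.35 (8505C wt) and 10.7 (8505C-PTX) FPKM. Of 5 crosslinking lysyl oxidases, 4 were compared in each pair. LOX was called lower in SW1736-PTX (15.7 to 5.27 FPKM, -1.56), and LOXL1 higher in 8505C-PTX (2.78 to 12.3 FPKM, 2.11).

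Of 12 fibril-associated proteoglycans and glycoproteins, 2 were higher and 1 lower of 7 compared in the SW1736 pair, and 3 higher and 1 lower of 6 in the 8505C pair, with no gene called the same way in both. PRELP, a leucine-rich proteoglycan that links basement membrane to matrix, differed most in the SW1736 pair (0.0233 and 15.9 FPKM), and TNC, a glycoprotein of remodelled stroma, in the 8505C pair (33.7 and 5.99 FPKM). Of 14 basement-membrane partners, all were compared, with 5 higher and 4 lower in SW1736-PTX and 6 higher and 0 lower in 8505C-PTX. LAMB2, NID1 and NID2, a laminin chain and both nidogens, which tie laminin to type IV collagen, were called higher in both (2.07 and 2.48, 2.89 and 1.69, 2.09 and 3.37). The largest changes were those of LAMA5, with 0.430 FPKM in SW1736 wt and 129 in the library labelled SW1736-PTX, beside 68.2 in 8505C wt, and of LAMA3, with 0.592 and 8.08 FPKM in the 8505C pair.

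Collagen receptors were called higher or not at all, with 3 higher of 7 compared in the SW1736 pair and 4 of 8 in the 8505C pair, beside 15.7% and 15.0% of all genes. ITGA1 and ITGA11, the alpha subunits of collagen-binding integrins, were higher in both (3.68 and 2.67, and 1.71 and 4.31), as was MRC2 (Endo180), which takes up collagen fragments (1.86 and 2.98). DDR2, a receptor tyrosine kinase for fibrillar collagen, was at 0.250 FPKM in 8505C wt and 13.3 in 8505C-PTX (5.26), whereas neither SW1736 library passed 0.5 FPKM (0.0173 and 0.203). Against 8505C wt, ITGA1 in SW1736-PTX was level (0.04), whereas ITGA11 was higher (3.79).

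Among 11 genes of collagen degradation, 3 were higher and 1 lower of 7 compared in the SW1736 pair, and 3 higher and 0 lower of 7 in the 8505C pair. MMP1, the interstitial collagenase, was listed at 0 in SW1736 wt, whereas SW1736-PTX had 254 FPKM, 8505C wt 2629.6 and 8505C-PTX 2173. MMP14, a membrane-bound collagenase named after its values were seen, was at 154 (SW1736 wt), 0.589 (SW1736-PTX), 10.7 (8505C wt) and 17.3 (8505C-PTX) FPKM. TIMP3, a matrix-bound inhibitor of these enzymes, was higher in both pairs, 0.297 against 14.4 FPKM in SW1736 and 10.0 against 150.4 in 8505C. Of 12 genes of the TGF-beta pathway and of other regulators of collagen transcription, 3 were higher and 0 lower in each pair. TGFB2, a TGF-beta ligand, was called higher in both (2.20 and 3.44), as was SMAD7, an inhibitor induced by the pathway (1.71 and 3.04), while SP1 differed by 0.15 and 0.26.

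**Figure D5:**
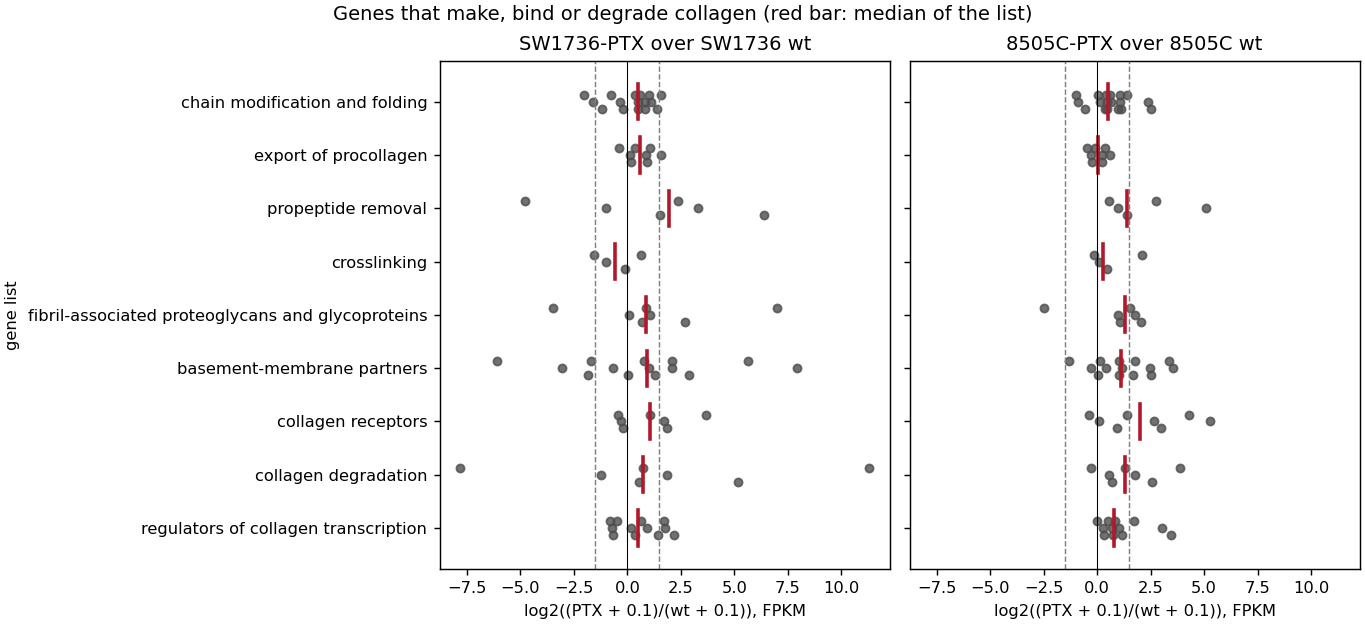
Log2 fold change of PTX over wt on FPKM + 0.1 (horizontal axis) for the genes of 9 lists around collagen (vertical axis), in the SW1736 pair (left) and the 8505C pair (right); each point is a gene, spread vertically for legibility, red bars are list medians and dashed lines mark 1.5 in either direction. The receptor list has the highest median in the 8505C pair (2.03), and its points are not below -1.5 in either pair.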

How the data were processed

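According to the labels and the methods, bcl2fastq 2.20 wrote the reads, adapters and low-quality bases were removed, and single-end reads were aligned to hg38 with STAR and quantified per gene locus with StringTie, whose version and annotation are not given in the sources used here. The deposited tables hold, for each gene, the mean coverage per base (a signal the authors did not scale for depth), the FPKM computed by the authors with StringTie, and the TPM, also deposited by the authors, which sums to the same total in every library. No read counts were used.

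Rows of a gene name were summed; 6 of the 50 collagen rows of each table, all of COL11A2, lie on alternative contigs and were at 0. Log2((a + 0.1)/(b + 0.1)) was computed on FPKM, genes above 0.5 FPKM in at least 1 library of a pair were compared, and a value beyond 1.5 in either direction was called. The limits of 0.5 and 1.5 follow the study; the pseudocount is a choice made here. Depth was the highest ratio of coverage to FPKM divided by the read length of 75 bp, between 43.5 and 57.9 M reads. Transcript lengths came from GENCODE release 44, upstream sequences from RefSeq (GRCh38.p14). CCN2 was found in the tables as CTGF. The calls were checked on simulated data with large changes and counting error only. Neither the spread between cultures nor genes listed at 0 in the reference library were simulated. Each condition is 1 library, so no test was run. Collagens above 0.5 FPKM in any library were described one by one; of the pathway lists, genes called alike in both pairs and the largest change of each list and pair were named. The members, classes and lists were chosen with earlier results of these data known. Some markers are not reported here. The software was matplotlib 3.10.9 and pandas 2.3.3 with NumPy 2.4.6 under Python 3.11.15.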

Additional observations from a re-analysis of the deposited data

Results flagged for a closer look

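In 4 collagens the 8505C pair and the SW1736 pair were called in opposite directions, lower in SW1736-PTX and higher in 8505C-PTX than in the parental cells, and the difference was not tested, since each condition is 1 library. The log2 fold change of the 8505C pair minus that of the SW1736 pair was 8.01 for COL1A1, 4.20 for COL5A2, 5.95 for COL7A1 and 5.26 for COL9A3. For COL1A1 and COL7A1, SW1736-PTX lay above 8505C wt (log2 differences of 2.85 and 3.12), so the direction in the SW1736 pair depends on SW1736 wt as the reference. COL9A3 was at or below 1.05 FPKM in every library. The part of the lineage differences between the libraries labelled SW1736 wt and SW1736-PTX in these values was not tested.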

How the results depend on the processing

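Of 100 counts recomputed under alternatives, 82 were within 1.5 times the value given. The alternatives include the highest row of a gene name in place of the sum, which could not change a count because the extra collagen rows were at 0. When both libraries of a comparison had to exceed 0.5 FPKM, the SW1736 pair had 4 collagens called higher, the 8505C pair 7 higher and 0 lower, 8505C wt over SW1736 wt 1 higher and 4 lower, the PTX lines 2 in each direction, and SW1736-PTX over 8505C wt 6 higher and 0 lower; this setting drops the genes that are low in 1 library. With a pseudocount of 1, the 8505C pair had 9 higher and 0 lower, the PTX lines 1 lower, and SW1736-PTX over 8505C wt 8 higher and 0 lower, since a larger pseudocount shrinks the change of low genes. Without genes listed at 0 in either library, an alternative chosen after seeing the data, 7 were higher in the SW1736 pair and 3 in 8505C wt over SW1736 wt. A limit of 1 gave 8 lower between the PTX lines, and a limit of 2 gave 0 lower in SW1736-PTX over 8505C wt. The numbers of collagens compared and the shares of all genes called under these alternatives are not given here. These counts therefore do not show whether the collagens still exceed the share over all genes. Over all alternatives the median of the collagens ranged from -0.97 to 1.03 in the SW1736 pair, where its direction thus depends on the setting, and from 0.89 to 2.45 in the 8505C pair, where it stayed positive. Centring on the median of all genes moved the 8505C values by 0.11. Chain ratios are the same with TPM by construction, since TPM rescales all genes of a library by the same factor. No paired analysis was possible because each condition has 1 library, no replicate numbers are shared, and the lines are not replicates of each other. Depth limits mainly the genes below about 0.01 FPKM.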

Other observations

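The genes around the clustered collagen loci were read as well, taking every gene other than a collagen within 0.5 Mb that was compared. Their counts are few and stand beside 15.7% higher and 10.2% lower of all genes in the SW1736 pair, and 15.0% and 5.89% in the 8505C pair. Around COL6A1 and COL6A2 on chromosome 21, 9 such neighbours had a median log2 fold change of -0.71 in the SW1736 pair, with 0 higher and 3 lower, and of 0.25 in the 8505C pair, with none called, while both collagens were called higher in both pairs. Around COL4A3 and COL4A4 on chromosome 2, 5 neighbours had medians of -0.15 and -0.01, and none was called in either pair. Around COL4A5 and COL4A6 on chromosome X, 4 neighbours had medians of -0.61 and -0.01, with 1 called lower in the SW1736 pair and 1 higher in the 8505C pair. Around COL3A1 and COL5A2, 3 neighbours had medians of -1.27 and -1.04, with 1 called lower in the SW1736 pair. At the COL4A1 and COL4A2 locus on chromosome 13, 7 neighbours had medians of -0.81 and 0.19, with 1 called lower in the SW1736 pair. The deposited loci of COL4A3 and COL4A4 lie 6 bp apart, and strand use in the counting is not given in the sources used here, so reads near this border could not be assigned to either gene with certainty.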
